A study of Homo sapiens with 36 samples.

Results

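Untreated HepG2-IGF1R-KO cells kept in insulin-resistant medium were compared with untreated cells of the same line kept in normal medium. The members were chosen by the medium and the treatment in the sample titles, which gave 9 libraries in insulin-resistant medium and 9 in normal medium, 18 of the 36 RNA-seq libraries of the series. HepG2 is a human hepatoma line used as a model of the hepatocyte, and in all of these cells the gene of the IGF-1 receptor, IGF1R, was targeted for knockout. The insulin-resistant medium contained 1 nM human insulin, 20 mM glucose and 0.5 mM of fatty acids (oleic, linoleic and palmitic acid), and exposure lasted 72 h. Cells in normal medium were harvested at the same 72 h, and neither group received the 3 nM insulin stimulus of 18 h given to the other groups of the series. Whether the 1 nM insulin was still present at harvest is not stated in the labels, and the insulin, the fatty acids and the glucose of the medium were changed together, so their contributions cannot be told apart. The labels do not say whether the line is a single clone.

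In hepatocytes, insulin acting through its receptor and the kinase AKT keeps FOXO transcription factors out of the nucleus, which lowers transcription of gluconeogenic enzymes, while it raises lipogenic transcription through SREBP-1c. Long exposure to insulin, saturated fatty acids and glucose is widely used to weaken this response in culture. Saturated fatty acids and cell stress can also activate NF-kB, a family of dimeric transcription factors held in the cytoplasm by IkB proteins, whose targets include chemokines, adhesion molecules and the inhibitors that end the response.

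In insulin-resistant medium the libraries totalled 26.6M to 101.8M counts, with a median of 63.0M, and in normal medium 59.9M to 116.8M, with a median of 64.9M. Replicates 1 to 3 of the insulin-resistant group were the shallowest, at 26.6M to 28.9M counts, and they also stood apart in stromal transcripts. The summed level of 23 stromal markers (collagens, decorin, PDGF receptors and other genes of fibroblast-like cells) was 225 to 241 CPM (counts scaled to a common library total, TMM-adjusted) in these 3 libraries. The other 6 libraries in insulin-resistant medium had 37800 to 99900 CPM, and the 9 in normal medium 26200 to 86400 CPM. Such markers are not known from hepatocytes, and the labels do not say which cells made these transcripts. Elsewhere in the series, normal insulin-stimulated replicates 4 to 6 were low in the same markers. Whether these 6 libraries match their labels was not tested as such, which bears on every value from replicates 1 to 3. PTAFR, a gene high in insulin-resistant medium, had 21.2 to 22.3 CPM in resistant replicates 1 to 3 and 9.54 to 15.0 CPM in resistant replicates 4 to 9, against 0.385 to 0.732 CPM in normal medium. Hepatocyte markers summed to 34900 to 36600 CPM in replicates 1 to 3 and to 16300 to 25800 CPM in replicates 4 to 9 of the insulin-resistant group, against 24200 to 35800 CPM in normal medium. In such bulk samples fewer cells of a type and less RNA per cell cannot be told apart. Replicates 1 to 3, 4 to 6 and 7 to 9 are therefore treated below as 3 replicate sets, since libraries of a set deviated together from their group mean across genes (median correlation 0.899 in insulin-resistant and 0.559 in normal medium). The results are given for all 18 libraries, without resistant replicates 1 to 3, and by replicate set where the sets differ. The labels call the 9 libraries biological replicates but do not say that they were separate cultures, so p-values measure the spread between these libraries, which may be partly technical.

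**Figure D1:**
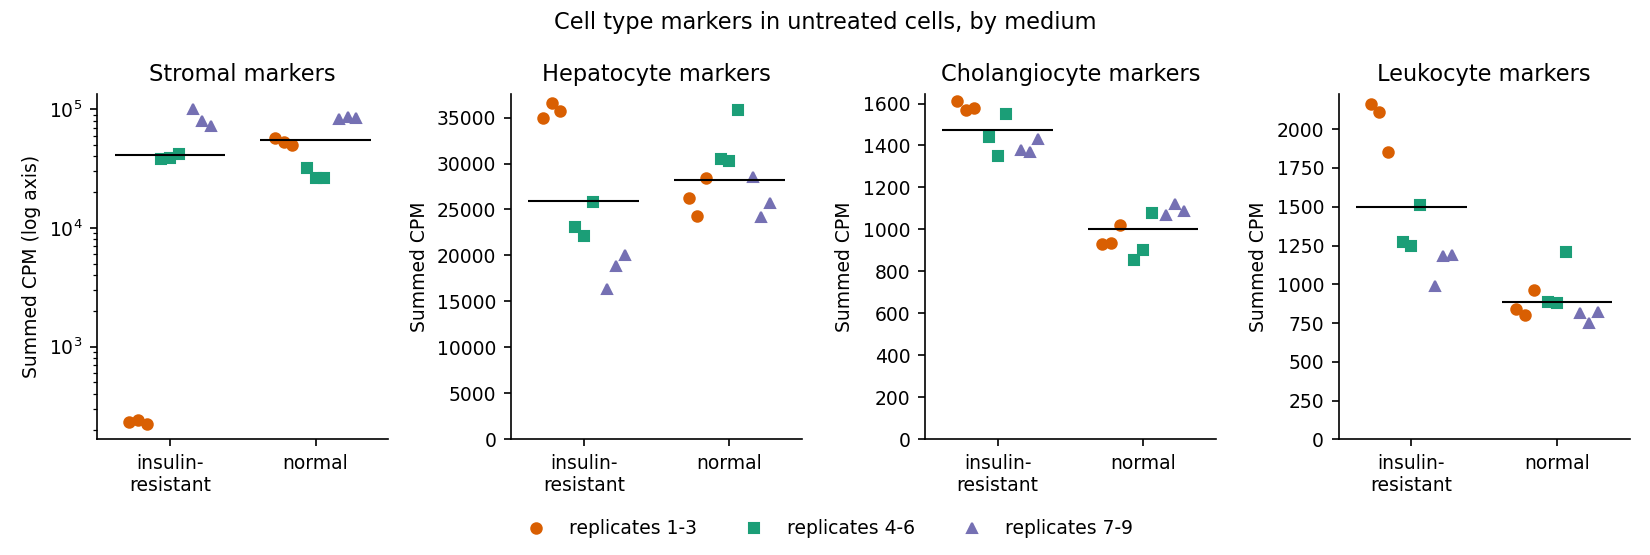
Summed CPM of the stromal, hepatocyte, cholangiocyte and leukocyte marker lists in each of the 18 untreated libraries. Points are libraries, coloured and shaped by replicate set, bars are group means, and the stromal panel has a log axis. Replicates 1 to 3 in insulin-resistant medium sit at 225 to 241 CPM for the stromal list, far below all other libraries, and have 34900 to 36600 CPM of hepatocyte markers.

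Across all 18 libraries, 2374 of 17227 genes tested (13.8%) were higher and 1610 (9.35%) lower in insulin-resistant medium at an adjusted p under 0.05 (edgeR quasi-likelihood test with batch date as covariate, Benjamini-Hochberg adjustment). Without resistant replicates 1 to 3 the counts were 2594 higher (14.7%) and 2579 lower (14.6%) of 17647 genes. In 605 genes (3.51%) every library in insulin-resistant medium lay above every library in normal medium, and in 279 genes (1.62%) every library lay below. Tested set by set, 3 libraries against 3, 903 of 16511 genes (5.47%) were higher and 385 (2.33%) lower in each of the 3 replicate sets. These p-values measure only the spread between libraries of 1 set, which deviated together, and leave out the spread between sets. With each set summed to 1 sample, 54 of 19745 genes (0.273%) were higher and 13 (0.0658%) lower. Taken singly, replicates 1 to 3 had 31.6% of genes higher and 37.7% lower, replicates 4 to 6 13.8% and 11.8%, and replicates 7 to 9 8.89% and 8.58%. In both media replicates 4 to 6 held all untreated libraries of the 24 May batch, and the other sets each mixed 22 April and 11 April. Differences between replicates 4 to 6 and the other sets thus cannot be told apart from batch date. The genes are described below by role. Fold changes are on the log2 scale, insulin-resistant over normal medium, with their standard error (SE), and levels are CPM scaled by TMM, a correction for differences in library composition.

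The inflammatory genes are shown first through their promoters, since several of them hold the same short motif near the transcription start. From 250 bases before to 50 after the start, RefSeq promoters (GRCh38.p14) were searched on both strands for 2 forms of the known NF-kB site, GGAANTTCC and the less specific GGGNNTTTC, which can overlap. The first form was present in 0.965% and either form in 5.56% of all 35116 promoters. Of the genes higher in each replicate set, 24 of the 662 with a promoter in the table (3.63%) held the first form, of the genes lower in each set 5 of 308 (1.62%), and of all genes tested in each set 160 of 11732 (1.36%). Either form was held by 79 (11.9%), 25 (8.12%) and 880 (7.50%) of these genes. The second form was shortened after a search in which a further C had to follow it, and that search found either form in 2.72% of all promoters and in 64 (9.67%), 12 (3.90%) and 459 (3.91%) of the same genes. A match to either form was present in 11 of 19 genes of the NF-kB list and in 8 of 14 chemokine and cytokine genes with a promoter in the table. These lists were chosen by known role and with earlier results of these data known, so their shares describe the lists and test nothing. A match describes letters in this window and does not show that the site is bound. Matches to the second form were also present in promoters of genes that fell, among them BCL6, ADH4, RXRA and CYP4F3. The 4 promoters printed here were chosen because they hold a match and their genes were among the largest rises. Of these, CXCL8 lies at chr4:73740319-73740618 (plus strand), ICAM1 at chr19:10270870-10271169 (plus strand), UBD at chr6:29559683-29559982 (minus strand) and BIRC3 at chr11:102317234-102317533 (plus strand). They read 5′ to 3′ on the strand of the gene, with the motif in capitals. CXCL8 and ICAM1 carry the first form, UBD the second, and BIRC3 the second on the opposite strand.
CXCL8: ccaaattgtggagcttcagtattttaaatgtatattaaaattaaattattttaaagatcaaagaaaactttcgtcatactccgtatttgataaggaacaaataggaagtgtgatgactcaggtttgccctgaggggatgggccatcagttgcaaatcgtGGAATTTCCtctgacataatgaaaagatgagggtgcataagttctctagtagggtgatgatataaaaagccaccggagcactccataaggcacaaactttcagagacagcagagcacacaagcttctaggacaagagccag
ICAM1: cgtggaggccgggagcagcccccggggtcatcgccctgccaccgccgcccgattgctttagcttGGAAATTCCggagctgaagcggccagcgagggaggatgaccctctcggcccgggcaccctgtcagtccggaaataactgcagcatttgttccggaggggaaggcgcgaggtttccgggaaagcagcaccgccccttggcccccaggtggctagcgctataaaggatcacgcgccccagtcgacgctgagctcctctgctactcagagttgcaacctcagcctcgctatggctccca
UBD: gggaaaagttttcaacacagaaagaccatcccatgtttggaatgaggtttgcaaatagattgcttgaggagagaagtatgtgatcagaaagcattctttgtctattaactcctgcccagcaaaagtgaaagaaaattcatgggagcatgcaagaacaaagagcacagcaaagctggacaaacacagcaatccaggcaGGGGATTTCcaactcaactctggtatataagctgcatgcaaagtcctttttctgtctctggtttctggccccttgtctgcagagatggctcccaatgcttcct
BIRC3: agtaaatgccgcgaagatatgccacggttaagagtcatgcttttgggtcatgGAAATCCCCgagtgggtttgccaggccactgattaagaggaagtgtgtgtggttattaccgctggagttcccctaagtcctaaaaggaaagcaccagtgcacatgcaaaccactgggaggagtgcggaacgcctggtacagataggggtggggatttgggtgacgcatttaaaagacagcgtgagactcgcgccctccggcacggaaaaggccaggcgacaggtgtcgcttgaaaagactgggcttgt

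Among secreted ligands, CXCL8, the neutrophil chemokine interleukin 8, rose most at appreciable levels. It had 92.7 to 207 CPM (median 128) in insulin-resistant medium, against 3.46 to 9.85 CPM (median 6.91) in normal medium. No library of either medium came near the range of the other, and the log2 fold change was 4.32 (SE 0.24, adjusted p 8.9e-09) with all libraries and 4.03 without resistant replicates 1 to 3. IL32, a proinflammatory cytokine, had 298 to 664 CPM (median 450) in insulin-resistant medium, against 81.7 to 140 CPM (median 91.2) in normal medium (log2 fold change 2.28, SE 0.16, adjusted p 9.6e-08). TNF, the cytokine that itself activates NF-kB, stayed under 1.1 CPM throughout, with 24 to 62 counts per library in insulin-resistant medium and 0 to 6 in normal medium (log2 fold change 5.00, SE 0.37, adjusted p 1.4e-07). TNFSF10, which encodes the death ligand TRAIL, fell instead, to 1.07 to 2.86 CPM (median 1.47) in insulin-resistant medium, against 5.86 to 10.6 CPM (median 7.29) in normal medium (log2 fold change −2.27, adjusted p 7.4e-07). Of the 19 tested chemokine and cytokine genes, 9 rose, 2 fell and 8 did not pass the test. Their median log2 fold change was 0.40, beside −0.04 over all genes, and the same 9 genes rose in each of the 3 replicate sets. Without resistant replicates 1 to 3, 10 were higher and 2 lower, and in replicates 1 to 3 alone 10 were higher and 8 lower. With all libraries 13.8% of all genes were higher and 9.35% lower, and 5.47% were higher in each set. The shares were 14.7% and 14.6% without resistant replicates 1 to 3, and 31.6% and 37.7% in replicates 1 to 3 alone.

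Some surface receptors of inflammation rose too. PTAFR, the receptor of platelet-activating factor, had 9.54 to 22.3 CPM (median 13.8) in insulin-resistant medium, against 0.385 to 0.732 CPM (median 0.580) in normal medium. Its log2 fold change of 4.72 (SE 0.21, adjusted p 1.1e-09) was the largest rise of any gene that averaged at least 5 CPM and was called with and without resistant replicates 1 to 3. ICAM1, the adhesion molecule that binds leukocyte integrins, had 228 to 545 CPM (median 348) in insulin-resistant medium, against 36.4 to 67.7 CPM (median 46.7) in normal medium (log2 fold change 2.95, SE 0.18, adjusted p 1.6e-08). TNFRSF9, a TNF receptor family member known from T cells, had 1.05 to 3.21 CPM in insulin-resistant medium, against 0 to 0.118 CPM in normal medium (log2 fold change 5.51, SE 0.43, adjusted p 2.4e-07). IFNGR1, a chain of the interferon gamma receptor, rose by a smaller amount (log2 fold change 0.88, SE 0.12, adjusted p 7.7e-05), again with no overlap between the media. In all, 9 of 19 tested receptor genes rose and 2 fell with 18 libraries, and 7 rose and 2 fell without resistant replicates 1 to 3, of 20 tested. In replicates 1 to 3 alone 9 of 18 were higher and 6 lower, beside 31.6% and 37.7% of all genes. The shares of all genes were 13.8% and 9.35% with 18 libraries, and 14.7% and 14.6% without resistant replicates 1 to 3.

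**Figure D2:**
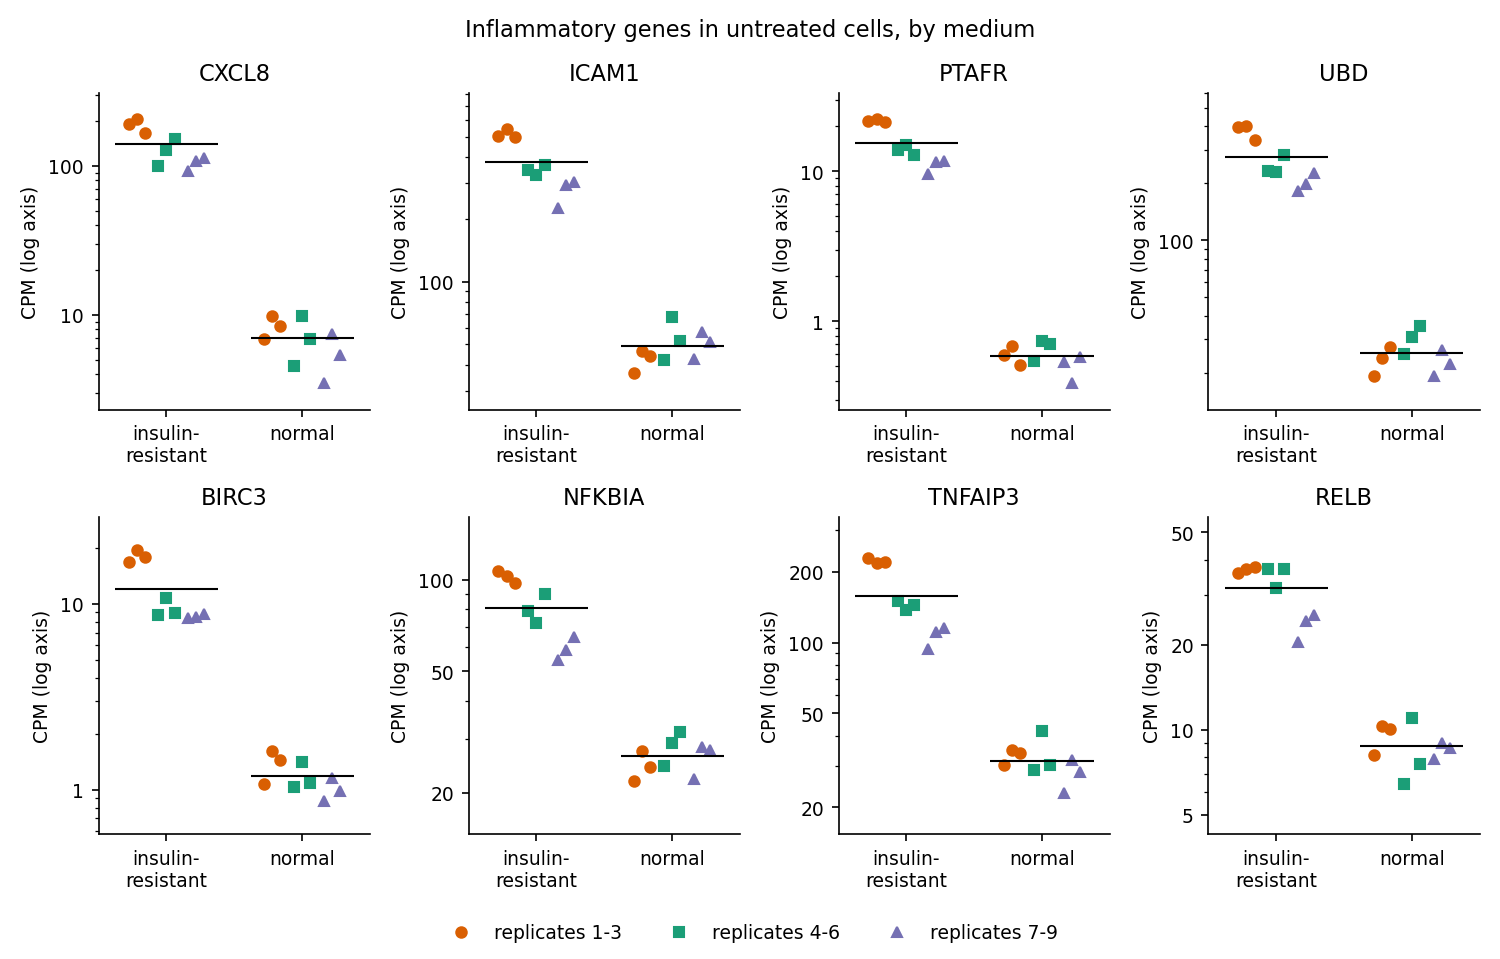
TMM-scaled CPM (log axes) of 8 inflammatory genes in each untreated library, insulin-resistant medium at the left and normal medium at the right. Points are libraries, coloured and shaped by replicate set, and bars are group means. For CXCL8 the 9 libraries in insulin-resistant medium span 92.7 to 207 CPM and the 9 in normal medium 3.46 to 9.85 CPM, and in none of the 8 genes do the media overlap.

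Within the NF-kB pathway, 15 of 22 genes rose and none fell, with 7 not passing the test, and 11 of the 15 showed no overlap between media. The count was 16 higher and 0 lower without resistant replicates 1 to 3 and 16 and 3 in replicates 1 to 3 alone, and 14 of the 22 were higher in each replicate set. Of all genes 13.8% rose and 9.35% fell, 3.51% lay above without overlap, and 5.47% were higher in each set. The shares were 14.7% and 14.6% without resistant replicates 1 to 3, and 31.6% and 37.7% in replicates 1 to 3 alone. The NF-kB genes that rose were subunits and inhibitors alike. RELB, a subunit of the non-canonical dimer, had 20.5 to 37.7 CPM (median 35.7) in insulin-resistant medium, against 6.41 to 11.0 CPM (median 8.59) in normal medium (log2 fold change 1.86, SE 0.14). NFKB2, which encodes its partner precursor p100, rose by 1.34 (SE 0.11), with 63.5 to 105 CPM in insulin-resistant medium and 28.7 to 40.3 CPM in normal medium. NFKBIA, the inhibitor IkB-alpha, had 54.6 to 107 CPM (median 78.8) in insulin-resistant medium, against 21.9 to 31.7 CPM (median 27.4) in normal medium (log2 fold change 1.62, SE 0.14). TNFAIP3, the ubiquitin-editing enzyme A20 that limits the pathway, had 93.6 to 228 CPM (median 144) in insulin-resistant medium and 23.0 to 42.0 CPM (median 30.3) in normal medium (log2 fold change 2.33, SE 0.19). BIRC3, the ubiquitin ligase cIAP2, had 8.43 to 19.6 CPM (median 8.90) in insulin-resistant medium, against 0.862 to 1.61 CPM (median 1.09) in normal medium (log2 fold change 3.33, SE 0.22), and TNIP1, a partner of A20, rose by 0.73 (SE 0.05). Adjusted p-values of these 6 genes lay between 1.9e-08 and 4.8e-07.

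The rises in CXCL8, ICAM1, PTAFR, UBD and BIRC3 were present in the libraries low in stromal transcripts and in the others. By replicate set (1 to 3, 4 to 6, 7 to 9), the log2 fold change of CXCL8 was 4.49, 4.14 and 4.29, that of PTAFR 5.17, 4.38 and 4.46, and that of ICAM1 3.60, 2.67 and 2.46. In UBD the 3 values were 4.00, 3.01 and 3.17. The values of replicates 1 to 3, whose insulin-resistant libraries held 225 to 241 CPM of stromal markers, were thus the highest of the 3 in each of these 4 genes. When the 3 libraries of a set were summed, leaving 3 samples a group, PTAFR, CXCL8, ICAM1, UBD and BIRC3 were still called (adjusted p 0.0254 to 0.0411), in a fit with 54 genes higher (0.273% of 19745) and 13 lower (0.0658%).

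Most genes of the antigen presentation list rose. CTSS, the lysosomal protease cathepsin S, known chiefly for invariant chain cleavage in MHC class II presentation, had 11.8 to 26.4 CPM (median 16.8) in insulin-resistant medium, against 0.802 to 1.38 CPM (median 1.01) in normal medium (log2 fold change 4.12, SE 0.20, adjusted p 2.4e-09). UBD, the ubiquitin-like modifier FAT10 encoded in the MHC region, had 182 to 401 CPM (median 232) in insulin-resistant medium, against 19.2 to 35.2 CPM (median 25.2) in normal medium (log2 fold change 3.44, SE 0.19, adjusted p 7e-09). The peptide transporter TAP1 and the loading factor TAPBP rose by 0.77 (SE 0.08) and 1.02 (SE 0.11), both without overlap between media. Of 19 genes on this list, 12 rose, 0 fell and 7 did not pass the test. Without resistant replicates 1 to 3 the counts were again 12 and 0, in replicates 1 to 3 alone 12 were higher and 6 lower, and 9 rose in each replicate set. Among all genes 13.8% rose and 9.35% fell with 18 libraries, and 5.47% rose in each set. Without resistant replicates 1 to 3 the shares were 14.7% and 14.6%, and in replicates 1 to 3 alone 31.6% and 37.7%. OR2I1P, an olfactory receptor pseudogene, was also among the largest rises (log2 fold change 3.86), but it is annotated in the same region of chromosome 6 as UBD, and how the authors' counting separates the reads could not be checked.

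Interferon-stimulated genes rose in part. OAS1, an antiviral 2′,5′-oligoadenylate synthetase, had 17.0 to 37.5 CPM (median 22.6) in insulin-resistant medium, against 6.12 to 10.3 CPM (median 7.33) in normal medium (log2 fold change 1.84, SE 0.17, adjusted p 1.6e-06). OAS3 rose by 1.61 (SE 0.17), ISG20, an antiviral exonuclease, by 1.73 (SE 0.17) and IRF1, an interferon-induced transcription factor, by 0.47 (SE 0.05). Of 24 genes on the list, 11 rose, 1 fell and 12 did not pass the test, and without resistant replicates 1 to 3 the counts were 13 and 0. In replicates 1 to 3 alone, 11 were higher and 11 lower, where stromal markers summed to 225 to 241 CPM in insulin-resistant medium and 50300 to 56800 CPM in normal medium. The part of those transcripts in the 11 falls was not tested. Of all genes, 31.6% were higher and 37.7% lower in that set. The shares were 13.8% and 9.35% with all libraries, and 14.7% and 14.6% without resistant replicates 1 to 3.

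Acute phase proteins, which the liver secretes in inflammation, did not move as a group. Of 18 tested, 5 rose and 8 fell, and without resistant replicates 1 to 3 the counts were 5 and 10. Among all genes 13.8% rose and 9.35% fell, and 14.7% and 14.6% without those replicates. CP, the copper carrier ceruloplasmin, had 15.9 to 54.6 CPM (median 23.4) in insulin-resistant medium, against 2.86 to 5.34 CPM (median 4.10) in normal medium (log2 fold change 2.76, SE 0.24, adjusted p 8.1e-07). SAA4, a constitutive serum amyloid A, rose by 1.55 (SE 0.16), SERPINA3, antichymotrypsin, by 1.01 (SE 0.17) and complement C3 by 0.90 (SE 0.17). The fibrinogen chain genes fell together. FGA had 233 to 580 CPM (median 357) in insulin-resistant medium, against 881 to 1360 CPM (median 980) in normal medium, and the log2 fold changes of FGA, FGB and FGG were −1.38, −1.09 and −1.01 (adjusted p 6.4e-05 to 0.00097). HAMP, the iron hormone hepcidin, had 0.168 to 0.761 CPM (median 0.459) in insulin-resistant medium, against 2.42 to 6.39 CPM (median 3.78) in normal medium (log2 fold change −2.96, SE 0.28, adjusted p 1.9e-06). ITIH4, an inter-alpha-trypsin inhibitor heavy chain, fell by 3.01 (SE 0.28) at levels under 1 CPM in both media. HP, haptoglobin, fell by 0.81 (SE 0.18), with overlapping ranges of 9.86 to 20.7 CPM in insulin-resistant medium and 19.5 to 41.3 CPM in normal medium.

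Several genes of hepatic glucose output fell. G6PC1, the liver isoform of glucose-6-phosphatase, an enzyme that releases free glucose at the end of gluconeogenesis, had 0.0701 to 0.499 CPM (median 0.189) in insulin-resistant medium, against 3.46 to 4.96 CPM (median 4.10) in normal medium. These are 5 to 17 counts per library in insulin-resistant medium and 198 to 546 in normal medium, and the log2 fold change was −4.39 (SE 0.29, adjusted p 4.5e-08). PCK1, the cytosolic phosphoenolpyruvate carboxykinase, had 1.58 to 4.20 CPM (median 2.74) in insulin-resistant medium, against 5.38 to 9.67 CPM (median 7.02) in normal medium (log2 fold change −1.30, SE 0.18, adjusted p 6.4e-05). SLC2A2, the hepatic glucose transporter GLUT2, had 8.11 to 21.6 CPM (median 11.1) in insulin-resistant medium, against 37.1 to 48.8 CPM (median 39.1) in normal medium (log2 fold change −1.59, SE 0.19, adjusted p 1.9e-05). PPARGC1A, a coactivator of the gluconeogenic programme, fell by 1.27 (SE 0.16, adjusted p 3e-05). None of these 4 genes overlapped between the media. Of 14 tested genes on the list, 6 fell, 2 rose and 6 did not pass the test, and without resistant replicates 1 to 3 the counts were 11 lower and 1 higher of 15. By replicate set the list was 5 lower and 5 higher in replicates 1 to 3, 10 and 0 in replicates 4 to 6, and 9 and 1 in replicates 7 to 9, and 4 genes were lower in each. Among all genes tested, 37.7% were lower and 31.6% higher in replicates 1 to 3. The shares were 11.8% and 13.8% in replicates 4 to 6, and 8.58% and 8.89% in replicates 7 to 9, with 2.33% lower in each. With all libraries they were 9.35% and 13.8%, and without resistant replicates 1 to 3 14.6% and 14.7%.

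**Figure D3:**
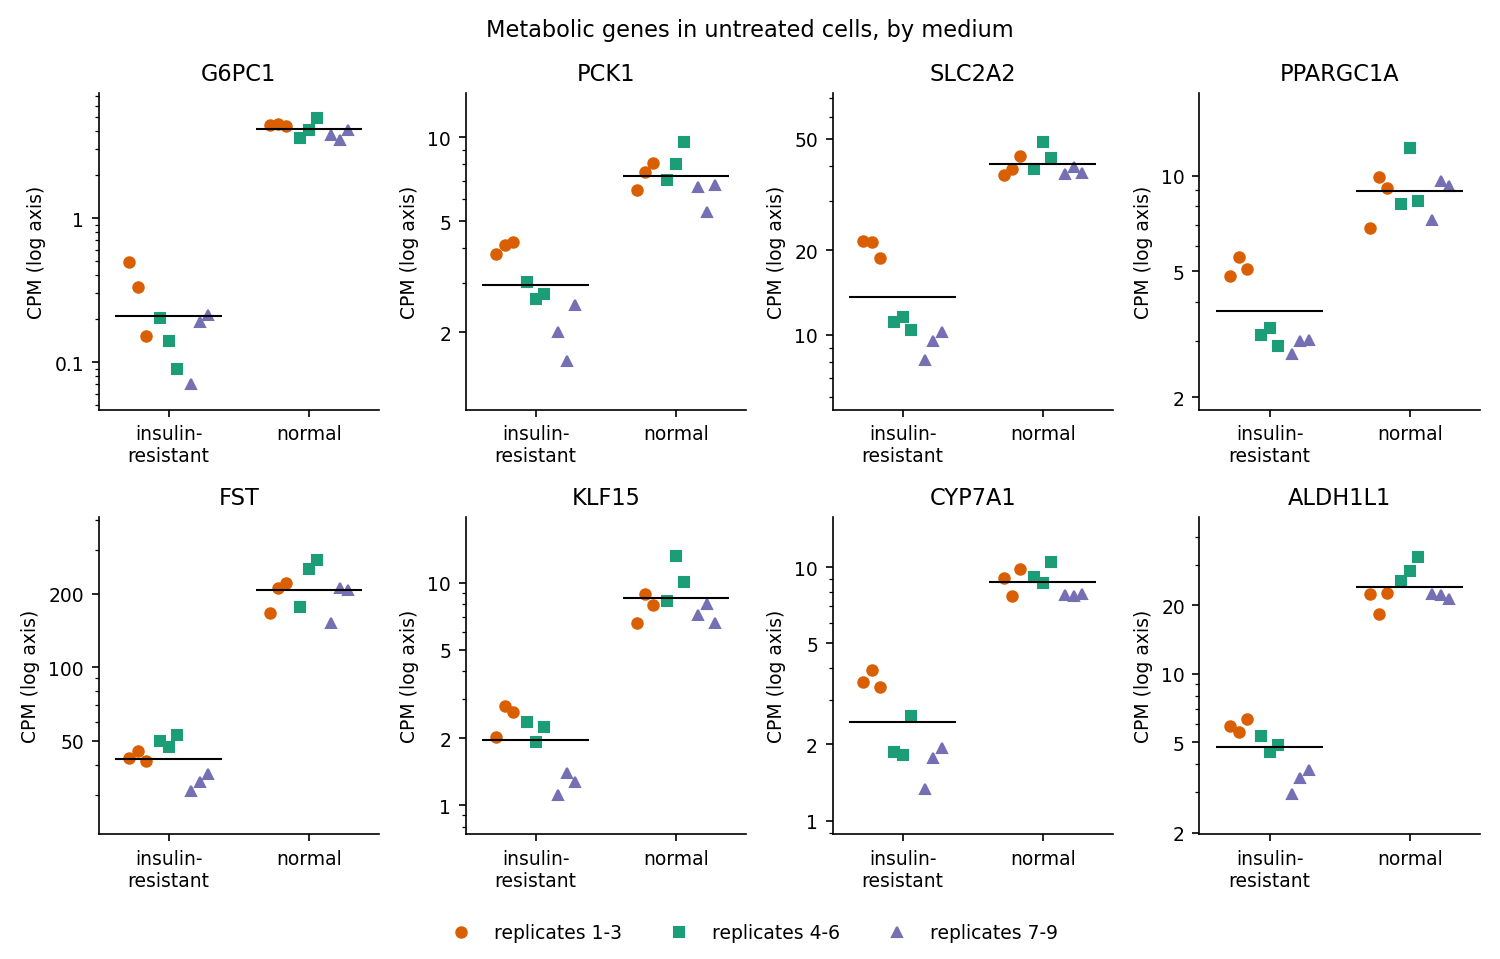
TMM-scaled CPM (log axes) of 8 genes of hepatic metabolism and insulin action in each untreated library, insulin-resistant medium at the left and normal medium at the right. Points are libraries, coloured and shaped by replicate set, and bars are group means. G6PC1 lies at 0.0701 to 0.499 CPM in insulin-resistant medium and at 3.46 to 4.96 CPM in normal medium, and the media do not overlap in any of the 8 genes.

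Of 19 tested genes listed as FOXO targets, 8 fell and 2 rose (9 and 3 without resistant replicates 1 to 3, and 9 and 6 in replicates 1 to 3 alone). In the same order, 9.35% of all genes fell and 13.8% rose (14.6% and 14.7%, and 37.7% and 31.6%). FST, follistatin, a secreted antagonist of activins, had 31.2 to 53.1 CPM (median 42.4) in insulin-resistant medium, against 151 to 274 CPM (median 210) in normal medium. Its log2 fold change was −2.30 (SE 0.10, adjusted p 1.1e-09), and at −2.21, −2.24 and −2.47 it was close to the same in the 3 replicate sets. BCL6, a transcriptional repressor, had 26.2 to 30.2 CPM (median 27.5) in insulin-resistant medium, against 47.8 to 64.4 CPM (median 54.1) in normal medium (log2 fold change −0.95, SE 0.05, adjusted p 3.8e-09). KLF15, a transcription factor of fasting amino acid and glucose metabolism, fell to 1.11 to 2.80 CPM (median 2.03) in insulin-resistant medium, against 6.57 to 13.2 CPM (median 8.02) in normal medium (log2 fold change −2.11, SE 0.18, adjusted p 6.3e-07). IGFBP1, a secreted IGF-binding protein, fell by 1.29 (SE 0.23, adjusted p 0.00063), although the ranges of 92.8 to 313 CPM in insulin-resistant medium and 312 to 806 CPM in normal medium met at their ends. In replicates 1 to 3 alone its change of −0.67 did not pass the test. Of 2 forms of the FOXO site, GTAAACA and CAAAACA (searched on both strands), either was held by 4 of the 15 FOXO target genes with a promoter in the RefSeq table (26.7%) and by 0 of 9 glucose output genes. The share was 41 of 308 (13.3%) among genes lower in each replicate set, 44 of 662 (6.65%) among those higher in each, 933 of 11732 (7.95%) among genes tested in each set, and 8.07% among all promoters. As with the NF-kB list, the share of the FOXO list describes genes of known role and is not a test.

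Of 26 genes of the insulin receptor pathway, 3 rose, 2 fell and 21 did not pass the test, near the 13.8% higher and 9.35% lower over all genes. In replicates 1 to 3 the list had 9 higher and 12 lower, beside 31.6% and 37.7% of all genes. Hepatocyte scaling without resistant replicates 1 to 3, which moved the median of all genes to 0.46, gave 24 higher and 0 lower. INSR, the insulin receptor, had 37.4 to 69.3 CPM (median 48.6) in insulin-resistant medium and 60.9 to 79.0 CPM (median 64.8) in normal medium (log2 fold change −0.38, SE 0.12, adjusted p 0.0259). By replicate set the values were −0.01, −0.58 and −0.64, so the fall was absent from replicates 1 to 3 and was −0.61 (adjusted p 2.3e-05) without the resistant libraries of that set. IGF1R, the targeted gene, was transcribed in all libraries, at 68.6 to 119 CPM in insulin-resistant medium and 86.1 to 151 CPM in normal medium (log2 fold change −0.32, SE 0.13, adjusted p 0.0969), and gene-level counts do not show whether these transcripts are edited.

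Lipogenic and sterol genes showed small or no changes. SREBF1, the gene of SREBP-1c, was 0.24 higher (SE 0.07, adjusted p 0.0163), but missed the threshold without resistant replicates 1 to 3 (0.19, adjusted p 0.0516). FASN, fatty acid synthase, had 949 to 2090 CPM in insulin-resistant medium and 1010 to 1930 CPM in normal medium (log2 fold change 0.20, SE 0.15, adjusted p 0.375), and SCD, stearoyl-CoA desaturase, did not pass the test either (0.17, SE 0.13, adjusted p 0.391). In both the sign depended on replicates 1 to 3, where each rose by 0.73, while FASN was at −0.04 and −0.21 and SCD at −0.15 and −0.16 in the other sets. ACLY, ATP citrate lyase, rose by 0.34 (SE 0.06, adjusted p 0.00071). Of 18 genes of fatty acid synthesis, 2 rose and 0 fell with all libraries, against 2 and 4 without resistant replicates 1 to 3. Among 24 genes of cholesterol synthesis, 5 rose and 0 fell with all libraries, against 1 and 2 without those replicates, and in replicates 1 to 3 alone 22 were higher. In that set 31.6% of all genes were higher. The shares of all genes were 13.8% higher and 9.35% lower with all libraries, and 14.7% and 14.6% without resistant replicates 1 to 3.

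Single genes of fatty acid handling moved in both directions. VNN1, the pantetheinase vanin 1, known as a target of PPAR-alpha, had 12.3 to 32.3 CPM (median 17.4) in insulin-resistant medium, against 3.89 to 5.62 CPM (median 4.94) in normal medium (log2 fold change 2.05, SE 0.19, adjusted p 1.2e-06). FABP1, the liver fatty acid binding protein, rose by 1.03 (SE 0.16), and the lipid droplet proteins CIDEC and PLIN2 by 1.21 (SE 0.18) and 0.72 (SE 0.13). PLIN2 had 104 to 187 CPM (median 134) in insulin-resistant medium and 64.0 to 112 CPM (median 85.4) in normal medium. In contrast, PLIN5, a droplet protein of oxidative tissues, fell by 1.22 (SE 0.22). CPT1A, which imports fatty acids into mitochondria, differed by −0.11 (SE 0.11, adjusted p 0.505). ANGPTL4, an inhibitor of lipoprotein lipase, was called lower (−2.72, SE 0.87, adjusted p 0.0336) with values of −5.56 in replicates 1 to 3 and of −0.09 and −0.14 in the other sets. It had 0.365 to 1.27 CPM in all 9 libraries in insulin-resistant medium, against 20.7 to 23.3 CPM in normal replicates 1 to 3 and 0.562 to 1.31 CPM in normal replicates 4 to 9, so the normal libraries of that set stood apart. Without the resistant libraries of that set it was −1.95 (adjusted p 0.167). Of 24 genes of fatty acid oxidation and PPAR-alpha action, 2 rose and 4 fell (2 and 8 without resistant replicates 1 to 3). Among 17 lipid droplet genes, 3 rose and 3 fell (4 and 6). Over all genes, 13.8% were higher and 9.35% lower (14.7% and 14.6% without those replicates).

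Several enzymes of hepatocyte metabolism fell. ADH1A, an alcohol dehydrogenase, was at 0 in 7 of 9 libraries in insulin-resistant medium and had 3 counts there in all, against 961 counts in normal medium (69 to 170 per library). In CPM the pooled level was 257 times higher in normal medium (95% exact interval 87.8 to 1250, covering counting error only). ADH4, another alcohol dehydrogenase, had 16.6 to 43.4 CPM (median 24.5) in insulin-resistant medium, against 65.4 to 108 CPM (median 74.5) in normal medium (log2 fold change −1.46, SE 0.19, adjusted p 4.4e-05). CYP7A1, the rate-limiting enzyme of bile acid synthesis, had 1.33 to 3.93 CPM (median 1.94) in insulin-resistant medium, against 7.69 to 10.5 CPM (median 8.69) in normal medium (log2 fold change −1.83, SE 0.20, adjusted p 6.7e-06). NR0B2, the nuclear receptor SHP that represses CYP7A1, rose by 0.91 (SE 0.15, adjusted p 0.00045), and RXRA, the shared partner of many nuclear receptors, fell by 0.44 (SE 0.04, adjusted p 2.2e-06). CYP4F3, a fatty acid omega-hydroxylase, fell by 2.50 (SE 0.19), ALDH1L1, a folate enzyme, by 2.33 (SE 0.14) and MAOA, monoamine oxidase A, by 1.75 (SE 0.17). SPINK1, a secreted trypsin inhibitor, fell by 1.99 (SE 0.21). AKR1C2, an aldo-keto reductase, fell by 1.85 (SE 0.20), a value that is uncertain because its near-identical paralogs share reads. In sphingolipid synthesis, SPTSSB, a small subunit of serine palmitoyltransferase, fell by 1.94 (SE 0.19) and SPTLC3, a catalytic subunit, by 1.13 (SE 0.19), the only falls with all libraries among 16 genes. Of 14 tested drug metabolism genes, 4 fell and 3 rose. Beside these 2 lists, 9.35% of all genes fell and 13.8% rose. GLUL, glutamine synthetase, fell by 0.59 (SE 0.10), and SLC2A3, a glucose transporter, by 0.61 (SE 0.07).

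**Figure D4:**
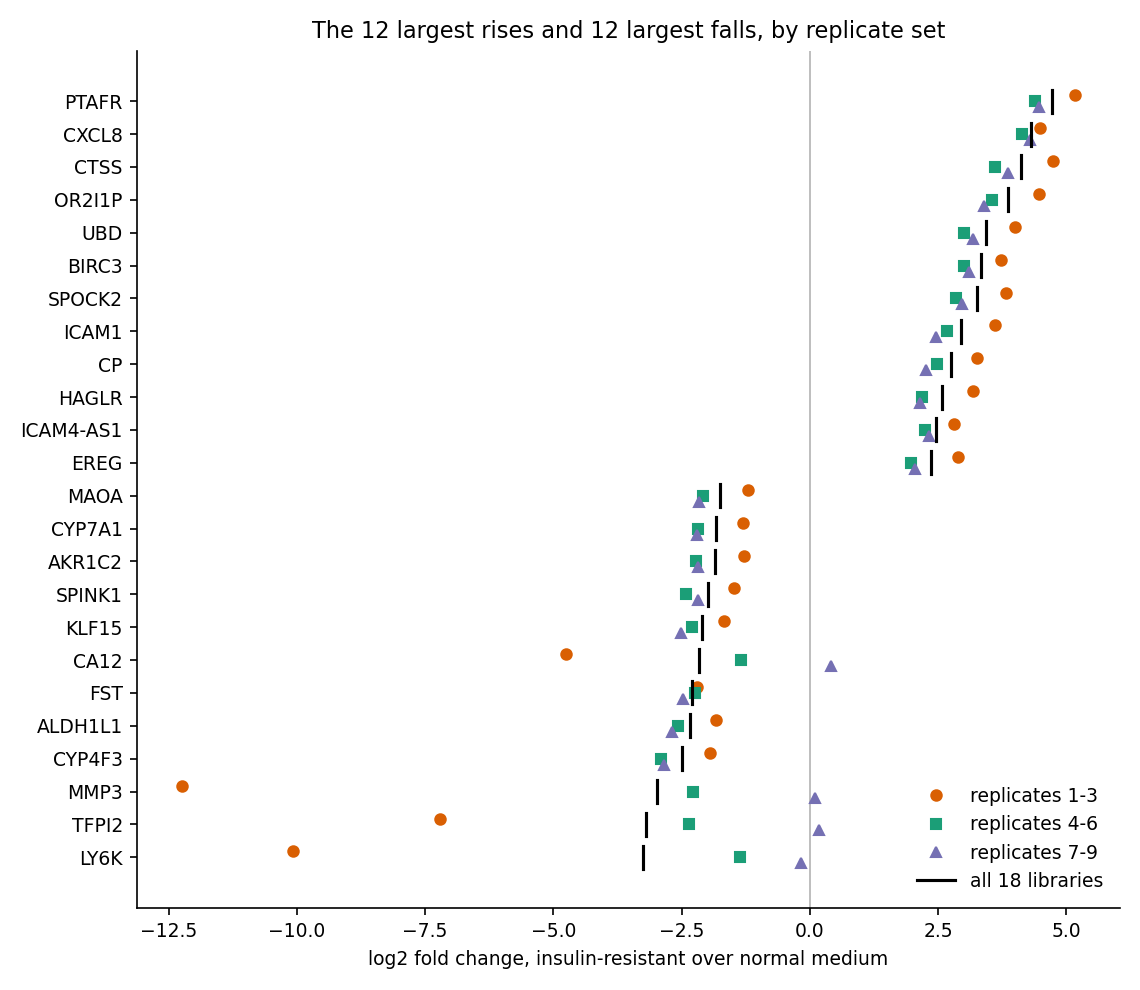
log2 fold changes (insulin-resistant over normal medium) of the 12 most raised and the 12 most lowered genes, among those averaging at least 5 CPM that were called with and without resistant replicates 1 to 3. Points are the fits of each replicate set and bars the fit of all 18 libraries. The sets lie close together for rises such as CXCL8 (4.49, 4.14 and 4.29), whereas LY6K, TFPI2, MMP3 and CA12 fall in replicates 1 to 3 and 4 to 6 and lie between −0.17 and 0.42 in replicates 7 to 9.

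The other members of the 12 largest rises were SPOCK2, a secreted proteoglycan (log2 fold change 3.26, SE 0.19), EREG, the EGF receptor ligand epiregulin (2.36, SE 0.25), HAGLR, a long noncoding RNA of the HOXD cluster (2.57, SE 0.18), and ICAM4-AS1 (2.45, SE 0.12). SPOCK2 had 39.0 to 95.3 CPM (median 66.5) in insulin-resistant medium, against 5.58 to 11.6 CPM (median 6.92) in normal medium, and EREG had 28.1 to 73.6 CPM (median 40.7) in insulin-resistant medium, against 5.29 to 13.9 CPM (median 7.96) in normal medium. Reads of HAGLR and ICAM4-AS1 could partly come from overlapping genes on the other strand (HOXD1, ICAM1 and ICAM4), since the libraries mark strand but the sources used here do not give the strand setting of the counting. Among the 12 largest falls, those of CYP4F3 (−1.95, −2.90 and −2.84 by replicate set) and MAOA (−1.21, −2.08 and −2.16) were smallest in replicates 1 to 3. FST, given above, was close to the same in the 3 sets. Another 4 of the 12 were largest in replicates 1 to 3. In that set the libraries in insulin-resistant medium were low in stromal transcripts and those in normal medium were not. MMP3, a matrix metalloproteinase, had 0 to 0.0312 CPM in replicates 1 to 3 in insulin-resistant medium, against 110 to 120 CPM in the same replicates in normal medium. In replicates 4 to 6 it had 6.82 to 7.22 CPM in insulin-resistant medium and 30.3 to 38.5 CPM in normal medium (log2 fold change −2.27, adjusted p 1.8e-07), and in replicates 7 to 9 10.6 to 13.6 CPM in insulin-resistant medium and 10.6 to 12.8 CPM in normal medium. TFPI2, LY6K and CA12 showed the same order, with log2 fold changes of −2.36, −1.37 and −1.35 in replicates 4 to 6, each past the threshold, and of 0.18, −0.17 and 0.42 in replicates 7 to 9, none past it.

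Secreted regulators of metabolism also differed between the media. ANGPTL8, an insulin-induced inhibitor of lipoprotein lipase, had 9.40 to 20.3 CPM (median 13.4) in insulin-resistant medium, against 2.45 to 6.44 CPM (median 3.87) in normal medium (log2 fold change 1.92, SE 0.22, adjusted p 1.2e-05). LEAP2, the liver-derived antagonist of the ghrelin receptor named in the title of the series, had 0.814 to 2.23 CPM (median 1.29) in insulin-resistant medium and 1.63 to 2.17 CPM (median 1.82) in normal medium. Its log2 fold change of −0.47 (SE 0.17, adjusted p 0.0635) missed the threshold with all libraries. By replicate set it was −0.02, −0.57 and −0.97, and without resistant replicates 1 to 3 LEAP2 was lower (−0.80, adjusted p 9.1e-05). Of 22 tested hepatokine genes, 5 rose and 5 fell, against 4 and 9 without those replicates. The shares over all genes were 13.8% higher and 9.35% lower, and 14.7% and 14.6% without those replicates.

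Several gene groups of the hepatocyte were higher in replicates 1 to 3 and lower in the other sets. Among 20 apolipoprotein and carrier protein genes, 13 were higher and 1 lower in replicates 1 to 3, 0 higher and 10 lower in replicates 4 to 6, and 1 higher and 10 lower in replicates 7 to 9. With all libraries 1 rose and 3 fell, and without resistant replicates 1 to 3 1 rose and 12 fell. Of all genes, 31.6% were higher and 37.7% lower in replicates 1 to 3. The shares were 13.8% and 11.8% in replicates 4 to 6, and 8.89% and 8.58% in replicates 7 to 9. They were 13.8% and 9.35% with all libraries, and 14.7% and 14.6% without resistant replicates 1 to 3. ALB, albumin, had 3570 to 8550 CPM in insulin-resistant medium and 6410 to 9980 CPM in normal medium, with log2 fold changes of 0.12, −0.77 and −0.76 by set and −0.41 (SE 0.17, adjusted p 0.104) overall. APOC3 and APOM, lipoprotein components, fell by 0.86 (SE 0.17) and 0.71 (SE 0.17) with all libraries. The 19 liver transcription factor genes divided in the same way, with 16 higher in replicates 1 to 3 and 5 and 8 lower in the other sets. Summed hepatocyte markers moved with these counts. In replicates 1 to 3 they were 34900 to 36600 CPM in insulin-resistant medium against 24300 to 28400 CPM in normal medium. In replicates 4 to 6 they were 22100 to 25800 CPM in insulin-resistant medium against 30300 to 35800 CPM in normal medium. In replicates 7 to 9 the ranges were 16300 to 20100 CPM in insulin-resistant medium and 24200 to 28500 CPM in normal medium. Their part in the changes of single hepatocyte genes was not tested.

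**Figure D5:**
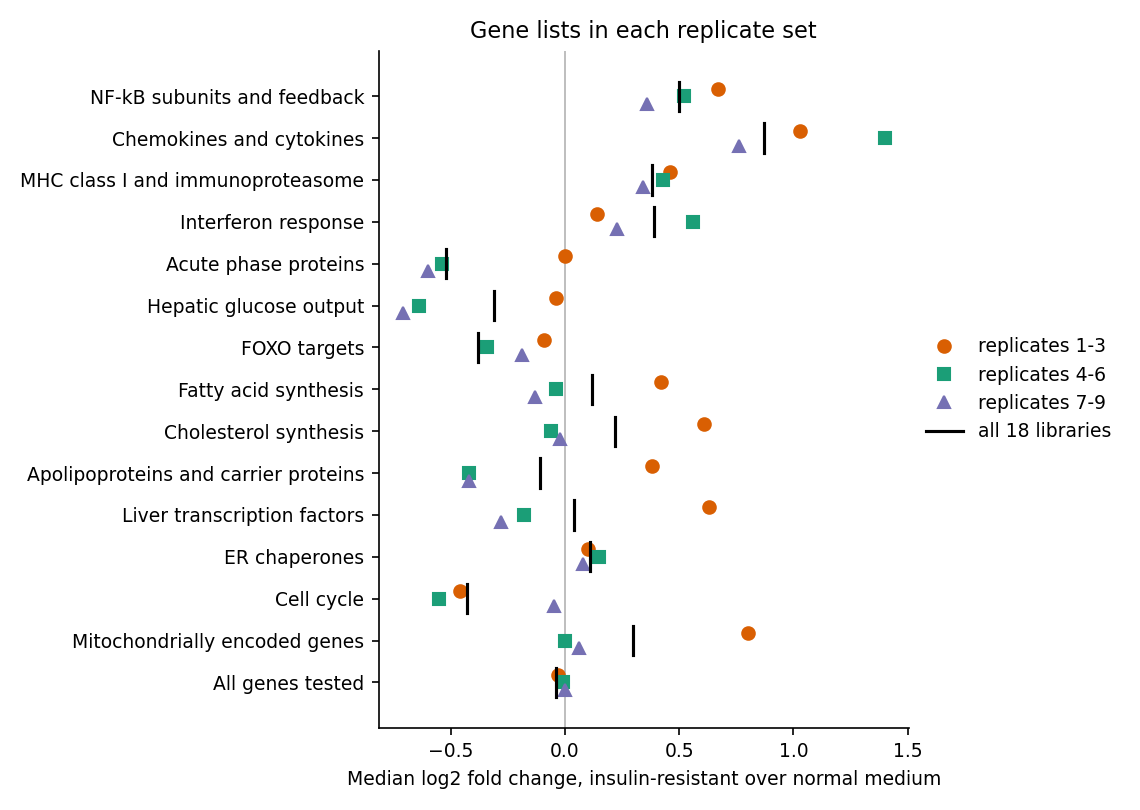
Median log2 fold change (insulin-resistant over normal medium) of 14 gene lists and of all genes, over the members tested in every fit. Points are the 3 replicate sets and bars the fit of all 18 libraries. The NF-kB list lies at 0.67, 0.52 and 0.36 in the 3 sets, while the apolipoprotein list lies at 0.38 in replicates 1 to 3 and at −0.42 in both other sets.

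Cell cycle genes differed between the sets as well. Of 25 genes, 20 were lower in replicates 1 to 3, 20 in replicates 4 to 6 and 2 in replicates 7 to 9, and with all libraries 4 fell and 1 rose. Of all genes tested, 37.7%, 11.8% and 8.58% were lower in these sets. With all libraries 9.35% were lower and 13.8% higher. CCNB2, a mitotic cyclin, had 14.0 to 27.8 CPM in insulin-resistant medium and 20.6 to 51.6 CPM in normal medium (log2 fold change −0.78, SE 0.20, adjusted p 0.00918), and CCNE1, a cyclin of S phase entry, rose by 0.71 (SE 0.17, adjusted p 0.00625). In normal medium CCNB2 was at 20.6 to 22.5 CPM in replicates 7 to 9 and at 36.4 to 51.6 CPM in the other sets, so the set with the fewest falls had the lowest level in normal medium. Without resistant replicates 1 to 3, 14 of the 25 were lower, beside 14.6% of all genes.

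Of the leukocyte marker list, PTPRC, C1QA and TYROBP were at or near 0 in both media, CD68 was not, and ITGAM rose while CD14 fell. ITGAM, an integrin chain known from myeloid cells, had 1.78 to 4.89 CPM (median 3.16) in insulin-resistant medium, against 0.0318 to 0.0944 CPM (median 0.0545) in normal medium (log2 fold change 5.89, SE 0.27, adjusted p 1.5e-09), in each replicate set. PTPRC, the common leukocyte antigen CD45, had 34 counts over the 9 libraries in insulin-resistant medium and 131 over the 9 in normal medium, and C1QA and TYROBP had 0 counts in all 18. The summed leukocyte list was 991 to 2160 CPM in insulin-resistant medium and 753 to 1210 CPM in normal medium, nearly all of it from LYZ, lysozyme. Of 12 markers on that list 7 were tested, of which 2 rose (ITGAM and LYZ) and 1 fell. CD14 was the 1 that fell (log2 fold change −1.98, SE 0.26, adjusted p 4.1e-05). It had 0.0861 to 0.517 CPM in insulin-resistant medium and 0.615 to 1.73 CPM in normal medium. CD68 did not pass the test (−0.16, adjusted p 0.346), at 17.9 to 29.5 CPM in insulin-resistant medium and 16.5 to 32.1 CPM in normal medium. Cholangiocyte markers rose in 3 of 6 tested genes. KRT19, a keratin of bile duct cells that many hepatoma lines also express, had 502 to 1100 CPM in insulin-resistant medium and 307 to 573 CPM in normal medium (log2 fold change 1.10, SE 0.14) and EPCAM rose by 0.91 (SE 0.17). Endothelial markers summed to 12.9 to 24.2 CPM in insulin-resistant medium and to 9.13 to 13.4 CPM in normal medium. ESAM alone had 7.84 to 18.2 CPM in insulin-resistant medium and 3.7 to 6.91 CPM in normal medium. CDH5 fell instead (log2 fold change −1.18, SE 0.28, adjusted p 0.00566), and KDR, ERG and EMCN were at or near 0. Of 5 tested endothelial markers, 2 rose and 1 fell. Of 21 endoplasmic reticulum chaperones, 2 were higher and 0 lower with all libraries, and 4 and 0 without resistant replicates 1 to 3. Of 25 ATF4 targets, 1 was higher and 1 lower with all libraries, 3 and 13 in replicates 1 to 3, 7 and 1 in replicates 4 to 6, and 0 and 3 in replicates 7 to 9. Among NRF2 targets SQSTM1, the autophagy receptor p62, rose by 0.85 (SE 0.07) while 3 of 21 rose and 6 fell. Beside these lists, 13.8% of all genes were higher and 9.35% lower with all libraries, and 14.7% and 14.6% without resistant replicates 1 to 3. By replicate set (1 to 3, 4 to 6, 7 to 9) the shares were 31.6% and 37.7%, 13.8% and 11.8%, and 8.89% and 8.58%.

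The series also holds cells in normal medium given 3 nM insulin for 18 h. That comparison shares the 9 untreated libraries in normal medium with the one described here, so its values stand beside those above without a test of likeness. Its insulin-stimulated replicates 4 to 6 were low in stromal transcripts, and the comparison was not fitted without them. In the fit of all 36 libraries, the log2 fold changes for insulin in normal medium were −5.09 for G6PC1, −1.88 for FST, −2.47 for SPTLC3 and 2.22 for ANGPTL8. CXCL8 was at 1.96, ICAM1 at 0.67 and RELB at 0.78. For other genes that differed between the media the values were near 0 or of the opposite sign, with PTAFR at −0.03 (adjusted p 0.922), TNFAIP3 at −0.25 (adjusted p 0.226), KLF15 at 0.14 (adjusted p 0.603) and UBD at −0.71 (adjusted p 0.00331). A test over all 36 libraries of whether the medium effect differed between stimulated and untreated cells called 1119 genes higher (6.22%) and 4233 lower (23.5%), against 2266 (12.4%) and 1709 (9.37%) without the 6 libraries low in stromal transcripts. CXCL8, G6PC1 and FST differed in both fits.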

How the data were processed

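Strand-specific poly-A libraries were sequenced, per the labels' protocols. The submitters' processing notes name Salmon, STAR and the build GRCh37. Not given in the sources used here are their roles and versions, the annotation and the strand setting. The authors deposited expected counts per Ensembl gene (estimated counts, unscaled, 15.5% not whole), which were rounded here. Of 57771 genes, 52330 (90.6%) were given a symbol from GRCh38 tables. TXNIP and some listed genes without a matching identifier were not analysed here. Promoters are RefSeq's, and 68 of the 87 named genes had one.

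Groups came from sample titles. Genes were kept by filterByExpr, scaled by TMM and tested with edgeR 4.0.16 in R 4.3.3 (robust quasi-likelihood test, batch date as covariate, Benjamini-Hochberg over all genes tested, adjusted p under 0.05). The scripts were tested on simulated counts. No pair of replicates agreed within sampling noise (lowest chi-square per gene 3.99). Totals were 26.6M to 116.8M counts per library, and a count of 0 allows up to 3 counts (counting error only). Alternatives used other libraries, covariates, scalings, filters and DESeq2 1.42.0. The comparison, lists and members were chosen with earlier results of these data known. Named genes were 30 key genes, the 12 largest rises and 12 largest falls (at least 5 CPM on average, called in the same direction with and without resistant replicates 1 to 3), and the members of each list with the lowest adjusted p, at most 4. Not all were named, some genes are not reported here, and TNFAIP3, SERPINA3 and C3 were added after their values were seen. The lists were described by counts and medians without a test.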

Additional observations from a re-analysis of the deposited data

Results flagged for a closer look

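In 14 of the 174 group values examined (87 named genes in each medium), the highest library in normal medium lay apart from the other 8. A chance rate of about 1 in 20 holds for independent libraries, which those of a replicate set are not. In 13 of the 14 that library was normal medium replicate 6. It had 10.3 CPM of OAS1, 40.1 of SAA4, 41.3 of HP, 1360 of FGA, 874 of FGB, 122 of APOM, 221 of FABP1, 5.08 of CIDEC, 5.85 of SPTSSB, 107 of AKR1C2, 28.0 of SPINK1, 9980 of ALB and 110 of EPCAM. The exception was INSR, at 79.0 CPM in normal medium replicate 5. No value in insulin-resistant medium stood apart in this way, but libraries of a set deviated together there, which can hide a single library.

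The medium effect was tested against that in insulin-stimulated cells with an interaction term over all 36 libraries (17983 genes), and 18 of the 40 named genes examined differed. The difference, stimulated minus untreated effect on the log2 scale, was −2.66 for CXCL8, −1.27 for ICAM1, −0.87 for BIRC3, −1.34 for RELB, −1.08 for CTSS, −1.06 for SPOCK2, −1.05 for HAGLR and −4.27 for EREG. Of these genes, EREG was lower in insulin-resistant medium in stimulated cells (log2 fold change −1.91, adjusted p 1.1e-07, same fit). The others rose less or not at all there. The difference was 4.68 for G6PC1, 1.70 for FST, 1.09 for CYP4F3 and 1.89 for HP. For IGFBP1 it was −1.25, for AKR1C2 −1.37, for PLIN2 −1.41, for SREBF1 −0.55, for FASN −0.84 and for ALB −0.64. The term depends on 6 libraries low in stromal transcripts, resistant untreated replicates 1 to 3 and normal insulin-stimulated replicates 4 to 6. Without them BIRC3 (−0.22), SPOCK2 (−0.20), HAGLR (−0.11), IGFBP1 (−0.26), AKR1C2 (−0.50), SREBF1 (−0.23), FASN (−0.08) and ALB (0.29) no longer passed the test, while CXCL8 (−1.82), EREG (−3.33), G6PC1 (5.54) and FST (1.84) did. ICAM1 (−0.50), CTSS (−0.48), PLIN2 (−0.87) and CYP4F3 (2.02) also passed without them, at values that moved by over 1.5 times.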

How the results depend on the processing

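Against 2374 genes higher and 1610 lower, leaving out resistant replicates 1 to 3 gave 2579 lower, and further fits without them gave 2698 (replicate block), 2680 (averaged TMM) and 2942 (DESeq2) lower. Replicates 4 to 9 of both groups gave 2826 lower, replicates 1 to 3 alone 5307 higher and 6336 lower, and replicates 7 to 9 alone 1535 higher. The 22 April batch alone (4 libraries a group) gave 272 higher and 78 lower. The 11 April batch (2 a group) gave 0 and 0 with edgeR, with 794 of 17389 genes at an unadjusted p under 0.05, and 239 and 40 with DESeq2. Summing each replicate set to 1 sample left 54 higher and 13 lower. The replicate set in place of batch gave 3041 lower, and a minimum fold change of 1.2 gave 995 higher and 409 lower. Scaling to 23 hepatocyte markers moved the median of all genes to 0.18 and gave 3032 higher and 460 lower. Without resistant replicates 1 to 3 that scaling moved the median to 0.46 and gave 12468 higher and 513 lower. The cause of these differences was not tested. With no filter, 1 CPM on average, DESeq2, its size factors, averaged TMM, no batch term and all 36 libraries, both counts stayed within 1.5 times. The interaction gave 1119 genes higher and 4233 lower, and 2266 and 1709 without the 6 libraries low in stromal transcripts.

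Same-numbered libraries of the media did not deviate together in every case (correlations from −0.0942 to 0.44, above 0.1 in replicates 4, 7, 8 and 9), so the numbers do not pair them. A replicate block gave 2586 higher and 2031 lower.

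Of 81 named genes called, 20 kept direction and call under all alternatives other than the 11 April batch, among them CXCL8, ICAM1, PTAFR, UBD, BIRC3, CTSS, G6PC1, FST and BCL6. With summed sets 20 of 81 were called. Signs turned for 4 called genes, in replicates 7 to 9 alone for TFPI2 (0.18), MMP3 (0.10) and CA12 (0.42), and for RXRA (0.03) under hepatocyte scaling without resistant replicates 1 to 3. Genes not called turned more often. Leaving out resistant replicates 1 to 3 gave −0.10 for FASN and −0.09 for SCD, −0.12 and −0.14 with the replicate block, −0.10 and −0.09 with averaged TMM, −0.10 and −0.09 with DESeq2, and −0.07 for SCD with no batch term. Replicates 4 to 9 gave −0.13 and −0.16, replicates 4 to 6 −0.04 and −0.15, and replicates 7 to 9 −0.21 and −0.16. Hepatocyte scaling gave 0.06 for CPT1A, and without resistant replicates 1 to 3 0.25 for CPT1A and 0.31 for IGF1R, and replicates 1 to 3 alone gave 0.12 for ALB.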
